A study of Mus musculus with 16 samples.

Results

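The genes described here are 42 mouse genes of the cell division cycle. Of these, 24 were grouped as mitosis genes and 18 as genes of S phase, the phase in which DNA is copied. They were listed by function, with earlier results of these data known, and matched by symbol to the targets of each library. There 40 of them were measured among 23930 targets, 23 mitosis genes and 17 S phase genes. Ccnb1 and Pcna were not analysed here. Gins2, a subunit of the replicative helicase, held only 1 to 15 counts per library and did not pass the filter on low counts, so 39 genes were tested, 23 of mitosis and 16 of S phase. The question was whether these genes differed when MCPIP1 was deleted from keratinocytes, from the myeloid lineage or from both, and whether the genes of the 2 phases did so alike.

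RNA was measured in whole skin of 12-week-old mice, 4 separately labelled animals in each of 4 groups. All 16 mice, controls included, carried loxP sites on both alleles of Zc3h12a, the gene of MCPIP1 (Regnase-1), an endoribonuclease that degrades mRNAs of inflammatory mediators, and the control mice (Control) had the genotype Zc3h12a(loxP/loxP) without Cre. EKO mice also had Krt14Cre(Tg/Wt), whose Krt14 promoter is active in basal keratinocytes of epidermis and hair follicles, MKO mice had LysMCre(Tg/Wt), active in macrophages and neutrophils, and EMdKO mice had both. The libraries held 6962474 to 12086327 counts, of which the mitosis genes took 0.015 to 0.0799% and the S phase genes 0.0162 to 0.0567%. Zc3h12a averaged 24.7 ± 4.99 CPM (reads relative to the TMM-scaled size of the library, mean ± SD, n = 4) for Control, 26.5 ± 7.55 for MKO, 8.63 ± 2.1 for EKO and 5.32 ± 0.617 for EMdKO mice. Its level does not check the MKO label, as whole skin holds many cells without LysM-Cre. Krt14, a keratin of basal keratinocytes, was present in every mouse at 651 CPM or more. Lyz2, the myeloid gene that holds the LysM-Cre, averaged 395 ± 103 CPM in Control and 370 ± 163 CPM in EKO. In the groups with LysM-Cre it averaged 218 ± 36.3 CPM (MKO) and 230 ± 51.4 CPM (EMdKO). Its lowest value, 147 CPM, was in EKO mouse 1, which had no LysM-Cre. In whole skin, fewer dividing cells and less RNA per dividing cell cannot be told apart.

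S phase genes and mitosis genes are switched on in turn as a cell divides. Before S phase, E2F factors are released from the retinoblastoma proteins and switch on the genes that license and copy DNA, such as the MCM helicase subunits and the enzymes that make nucleotides. Genes needed later for chromosome segregation are held back by the DREAM complex and then switched on by MuvB together with B-MYB and FOXM1, which act through promoter elements called the cell cycle genes homology region (CHR) and, for NF-Y, the CCAAT box. In skin, dividing cells lie mainly in the basal layer of the epidermis and in the matrix of growing hair follicles.

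The promoters of the 2 groups differed in which of these letters they held. RefSeq gave a promoter window of 300 bases on GRCm38.p6, from 250 before to 50 after the gene start, for 32 of the 40 measured genes, 18 of mitosis and 14 of S phase. The CHR was searched as TTTGAA and in its variant form as TTCGAA. The E2F site was searched in 4 forms, the first being TTCCCGC, the next being TTCGCGC, the one after it being TTGGCGC and the last being TTGCCGC. The CCAAT box was searched by its name's letters, and every motif on both strands. A CHR was found in 15 of the 18 mitosis windows (83.3%), in 3 of the 14 S phase windows (21.4%) and in 21.7% of the windows of all 27025 genes of the table. An E2F site was found in 2 mitosis windows (11.1%), those of Mki67 and Cdk1, in 9 S phase windows (64.3%) and in 10.9% of all windows. CCAAT was found in 16 mitosis windows (88.9%), 9 S phase windows (64.3%) and 41.1% of all windows. These are matches of letters and were not tested as sites.

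The promoters of 3 mitosis genes are shown first because these are the members called below. Ccnb2 lies at chr9:70421541-70421660 (minus strand), Cdc20 at chr4:118437330-118437449 (minus strand) and Plk1 at chr7:122159329-122159448 (plus strand), each ending 14 bases after the gene start. Capitals mark the CHR and CCAAT, and the CHR of Plk1 begins 31 bases after the gene start, past the end of the stretch shown.
Ccnb2: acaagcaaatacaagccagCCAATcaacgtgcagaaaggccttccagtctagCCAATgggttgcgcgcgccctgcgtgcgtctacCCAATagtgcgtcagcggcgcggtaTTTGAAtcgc
Cdc20: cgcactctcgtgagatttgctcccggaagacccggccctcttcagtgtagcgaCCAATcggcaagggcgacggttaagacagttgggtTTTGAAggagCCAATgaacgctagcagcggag
Plk1: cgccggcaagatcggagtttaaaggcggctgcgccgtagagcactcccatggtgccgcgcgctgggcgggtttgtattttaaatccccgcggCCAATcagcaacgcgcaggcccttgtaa

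Mcm6 at chr1:128359706-128359825 (minus strand) and Mcm5 at chr8:75109329-75109448 (plus strand) show the S phase pattern, with E2F sites in capitals. Several of these overlap on opposite strands, so that each capital run of 10 bases holds 2 matches. Mcm2 at chr6:88898781-88898900 (minus strand) is shown as the S phase gene with the smallest p between EKO and MKO, and its capitals mark a CHR.
Mcm6: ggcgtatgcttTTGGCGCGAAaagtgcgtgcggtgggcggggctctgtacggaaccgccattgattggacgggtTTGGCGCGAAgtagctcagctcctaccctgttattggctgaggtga
Mcm5: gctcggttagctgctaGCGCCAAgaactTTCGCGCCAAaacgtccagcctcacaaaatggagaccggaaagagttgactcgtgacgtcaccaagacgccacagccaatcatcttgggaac
Mcm2: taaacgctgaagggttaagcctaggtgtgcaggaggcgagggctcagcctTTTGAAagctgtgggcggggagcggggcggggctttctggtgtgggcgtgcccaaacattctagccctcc

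Across the 4 groups, cell cycle genes had their highest means in EKO skin and their lowest in MKO skin, and differences that passed the test were found only between those 2 groups. The EKO mean was the highest of the 4 group means for all 23 tested mitosis genes and for 15 of 16 S phase genes. The MKO mean was the lowest for all 23 mitosis genes and for 13 of 16 S phase genes. The shares of all genes with this order of group means were not counted. Fold changes below come from edgeR's quasi-likelihood test over 13633 genes, are given on the log2 scale with a standard error (SE), and were called where the Benjamini-Hochberg adjusted p was under 0.05. The 6 comparisons between groups share mice, so they are not independent of each other.

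Ccnb2 encodes cyclin B2, a partner of the mitotic kinase CDK1, and lies on chromosome 9. Mice 1 to 4 of Control gave 19.8, 8.77, 8.32 and 6.75 CPM, those of EKO 18.2, 17.4, 21.5 and 12.6 CPM, those of MKO 3.61, 5.56, 6.43 and 6.27 CPM, and those of EMdKO 9.36, 8.48, 10.4 and 8.09 CPM. Every MKO mouse lay below every mouse of the other groups, every EKO mouse lay above every EMdKO mouse, and Control mouse 1 lay within the EKO range while the other 3 controls did not.

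Cdc20, the activator that turns on the anaphase-promoting complex, lies on chromosome 4. Its levels were 18.7, 6.33, 8.22 and 11.2 CPM in Control, 15.6, 25.7, 20.6 and 18.3 CPM in EKO, 5.8, 5.31, 6.43 and 9.41 CPM in MKO, and 8.45, 7.51, 9.14 and 11.3 CPM in EMdKO. The lowest EKO mouse was above every MKO and EMdKO mouse, and MKO overlapped both Control and EMdKO. Plk1, polo-like kinase 1, which drives entry into and passage through mitosis, lies on chromosome 7. It had 14.7, 6.04, 6.17 and 4.12 CPM in Control, 14.8, 11.3, 13.2 and 9.06 CPM in EKO, 3.29, 2.65, 2.98 and 5.9 CPM in MKO, and 5.05, 4.48, 4.09 and 6.41 CPM in EMdKO. Again EKO lay wholly above MKO and EMdKO, and Control mouse 1 lay in the EKO range while the other 3 controls did not.

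Among the S phase genes, Mcm2, a subunit of the MCM helicase on chromosome 6, had 35.9, 29.6, 23.4 and 18.6 CPM in Control, 36.2, 33.7, 42.7 and 35.1 CPM in EKO, 10.5, 21.2, 14.1 and 24.3 CPM in MKO, and 20.6, 22.3, 20.2 and 26.3 CPM in EMdKO. EKO lay wholly above MKO and EMdKO, and the highest control reached into the EKO range. Mcm4, on chromosome 16, had 47.4, 37.1, 33.1 and 34.6 CPM in Control, 39.0, 42.0, 46.5 and 44.0 CPM in EKO, 19.6, 28.8, 23.8 and 33.6 CPM in MKO, and 27.8, 24.8, 29.5 and 27.5 CPM in EMdKO. Here every EMdKO mouse lay below every Control and every EKO mouse. Mcm6, on chromosome 1, had 58.2, 34.2, 50.2 and 39.6 CPM in Control, 59.9, 53.4, 63.3 and 62.0 CPM in EKO, 25.1, 39.2, 37.3 and 38.0 CPM in MKO, and 38.6, 39.4, 30.1 and 40.4 CPM in EMdKO. The EKO mice were again clear of both groups with LysM-Cre, and MKO mouse 1 was the lowest of all 16.

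**Figure D1:**
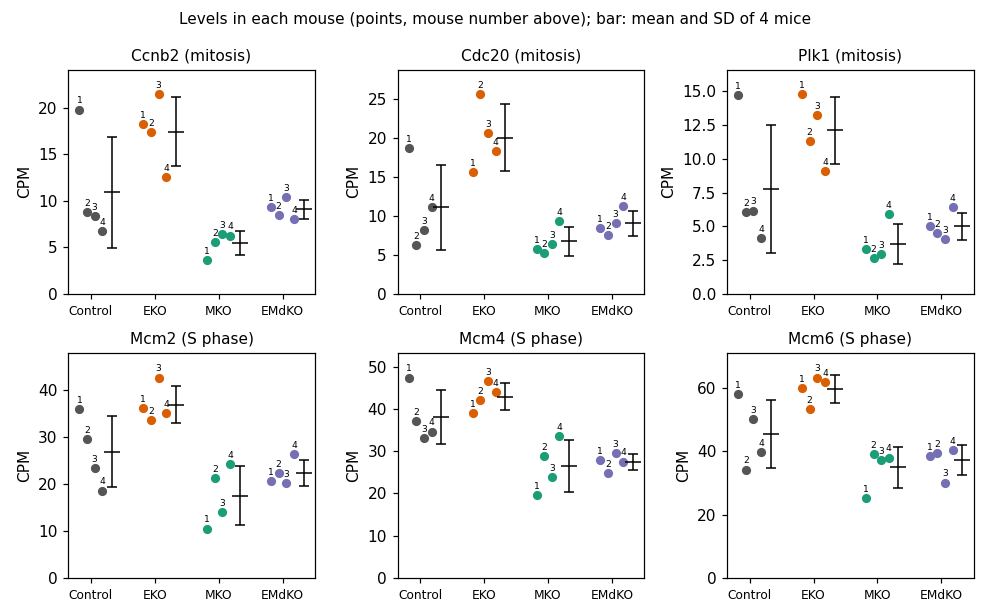
Level of 3 mitosis genes and 3 S phase genes in each mouse, in CPM on a linear axis that starts at 0. Points are mice with their number, and the bar beside each group is the mean ± SD of 4 mice. The EKO mice lie above all MKO and EMdKO mice in all 6 panels, and Control mouse 1 lies apart from the other controls for Ccnb2 (19.8 against 6.75 to 8.77 CPM).

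EKO skin had more mRNA of 3 mitosis genes than MKO skin. Ccnb2 was higher by 1.66 ± 0.30 (3.17-fold, adjusted p = 0.0217 in edgeR), Cdc20 by 1.57 ± 0.30 (2.97-fold, adjusted p = 0.0276) and Plk1 by 1.70 ± 0.36 (3.25-fold, adjusted p = 0.0389). These 3 of 39 tested members were called, against 0.858% of all genes (117 of 13633). The next in order missed the threshold, with edgeR adjusted p of 0.0511 for Mcm2 (1.07 ± 0.24), 0.0513 for Kif11 (1.55 ± 0.35), a motor that pushes the spindle poles apart, and 0.0518 for Ccna2 (1.39 ± 0.32), cyclin A2. Mcm6 (0.77 ± 0.18) and Mcm4 (0.69 ± 0.17) followed among the S phase genes. All 39 members had a positive fold change, against 47.7% of all genes, and 36 reached an unadjusted p under 0.05 (23 of mitosis and 13 of S phase), against 8.73% of all genes. The 4 EKO mice lay wholly above the 4 MKO mice for 28 members (18 and 10), against 5.15% of all genes. The median change was 1.16 over the mitosis genes, 0.77 over the S phase genes and -0.02 over all genes.

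The 3 calls depended on single mice. The count of called members fell to 0 without EKO mouse 2 or 3 or without MKO mouse 1, 2 or 3, to 1 without EKO mouse 4, and to 2 without EMdKO mouse 1, 2 or 4, and it became 17 without Control mouse 1 and 11 without EKO mouse 1. DESeq2 called 23 members in this comparison, and limma-voom with a quality weight for each library called 34. Neither called a member in the other 5 comparisons or the interaction. The median over the mitosis genes stayed between 1.00 and 1.44 and that over the S phase genes between 0.63 and 0.85 whichever of the 16 mice was left out.

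Against Control, EKO skin had no called member, and none of the 13633 genes was called (0%), while 447 genes had an unadjusted p under 0.05 with a higher and 493 with a lower value. All 39 members had a fold change of 0 or more, against 45.8% of all genes above 0, with a median of 0.45 for mitosis and 0.28 for S phase against -0.03 for all genes. An unadjusted p under 0.05 was reached by 3 members, Cdc20 (0.85 ± 0.29), Ccnb2 (0.68 ± 0.29) and Mcm6 (0.39 ± 0.18), against 3.28% of all genes. Birc5, the survivin subunit of the chromosomal passenger complex (0.63 ± 0.33), Mcm5 (0.79 ± 0.41) and Mcm2 (0.46 ± 0.24) came next in their groups. No member separated the 4 EKO mice from the 4 controls, against 1.03% of all genes. Without Control mouse 1 the medians were 0.77 and 0.54, and 25 members (20 and 5) had an unadjusted p under 0.05. With Control mouse 1 and EKO mouse 1 both left out, 2 members were called, Ccnb2 and Cdc20.

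MKO skin had lower values than Control for all 23 mitosis genes and for 14 of 16 S phase genes, against 49.8% of all genes, and no member was called, against 0.0293% of all genes. The medians were -0.74 and -0.47, against 0 for all genes, and 19 members (14 and 5) had an unadjusted p under 0.05, against 6.41% of all genes. The smallest p belonged to Kif11 (-1.29 ± 0.36), Ccnb2 (-0.99 ± 0.30) and Plk1 (-1.06 ± 0.36) among the mitosis genes. Among the S phase genes it belonged to Cdt1, which loads the helicase at origins (-0.87 ± 0.25), Mcm4 (-0.52 ± 0.17) and Mcm2 (-0.61 ± 0.24). The edgeR adjusted p of Kif11, Ccnb2, Cdt1 and Mcm4 was 0.331. Kif11, Ccnb2 and Cdt1 were lower in every MKO mouse than in every control, against 1.71% of all genes. Without Control mouse 1 the medians were -0.38 and -0.22, and without MKO mouse 1 they were -0.56 and -0.34.

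EMdKO skin against Control gave medians of -0.25 for mitosis and -0.28 for S phase, against -0.02 for all genes, and 35 of 39 members had a negative fold change, against 52.9% of all genes. No member was called, against 0.0293% of all genes. Mcm4 (-0.47 ± 0.17, edgeR adjusted p = 0.446) was the only member with an unadjusted p under 0.05, against 4.65% of all genes. Cdt1 (-0.41 ± 0.25) and Mcm4 were lower in every EMdKO mouse than in every control, against 1.45% of all genes. Mcm6 (-0.30 ± 0.18) and, among the mitosis genes, Kif11 (-0.64 ± 0.34), Plk1 (-0.63 ± 0.35) and Aurkb, the kinase of the chromosomal passenger complex (-0.43 ± 0.34), came next. The direction of the mitosis median rested on 1 control: it was 0.19 without Control mouse 1, where the S phase median was -0.05.

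Where LysM-Cre was added to Krt14-Cre, all 39 members had lower values. EMdKO against EKO gave medians of -0.61 for mitosis and -0.58 for S phase, against 0 for all genes, of which 49.7% were negative. No member was called, against 0.0147% of all genes, and 14 members (9 and 5) had an unadjusted p under 0.05, against 3.18% of all genes. The 4 EMdKO mice lay wholly below the 4 EKO mice for 25 members (15 of mitosis and 10 of S phase), against 2.71% of all genes. The smallest p belonged to Cdc20 (-1.14 ± 0.29), Plk1 (-1.27 ± 0.35), Ccnb2 (-0.94 ± 0.29), Mcm4 (-0.64 ± 0.17), Mcm6 (-0.68 ± 0.18) and Mcm2 (-0.72 ± 0.24), and the edgeR adjusted p of Cdc20, Plk1, Mcm4 and Mcm6 was 0.514. The medians stayed between -0.70 and -0.55 and between -0.63 and -0.49 with each of the 16 mice left out in turn.

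Where Krt14-Cre was added to LysM-Cre, the mitosis genes had higher values. EMdKO against MKO gave a median of 0.56 for mitosis, with all 23 positive, and 0.24 for S phase, with 14 of 16 positive, against -0.01 for all genes, of which 48.1% were positive. No member was called, against 0.00734% of all genes, and 7 mitosis genes but no S phase gene had an unadjusted p under 0.05, against 4.28% of all genes. They were led by Cenpe, a kinetochore motor (1.08 ± 0.41, edgeR adjusted p = 0.499), Prc1, which bundles the central spindle (0.70 ± 0.27), and Tpx2, a spindle assembly factor (0.74 ± 0.31). Cdt1 (0.46 ± 0.25), Mcm2 (0.35 ± 0.24) and Rrm2 (0.30 ± 0.29) led the S phase genes. Ccnb2, Prc1 and Bub1b, a spindle checkpoint kinase, were higher in every EMdKO mouse than in every MKO mouse, against 3.71% of all genes. Without MKO mouse 1 the medians were 0.37 and 0.00, and no member had an unadjusted p under 0.05.

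The interaction asks whether the double knockout differed from the sum of both single knockouts. Its median was 0.11 over the mitosis genes, -0.11 over the S phase genes and 0.01 over all genes. No member had an unadjusted p under 0.05 and none of the 13633 genes was called (0%), with 303 positive and 162 negative at an unadjusted p under 0.05. Cenpe (0.78 ± 0.56), Cdc20 (-0.42 ± 0.41), Nusap1 (0.41 ± 0.42), Mcm6 (-0.30 ± 0.26), Cdt1 (0.39 ± 0.35) and Cdc6 (-0.62 ± 0.58) had the smallest p, each with an SE close to its value. Without Control mouse 1 the medians were -0.34 and -0.43.

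**Figure D2:**
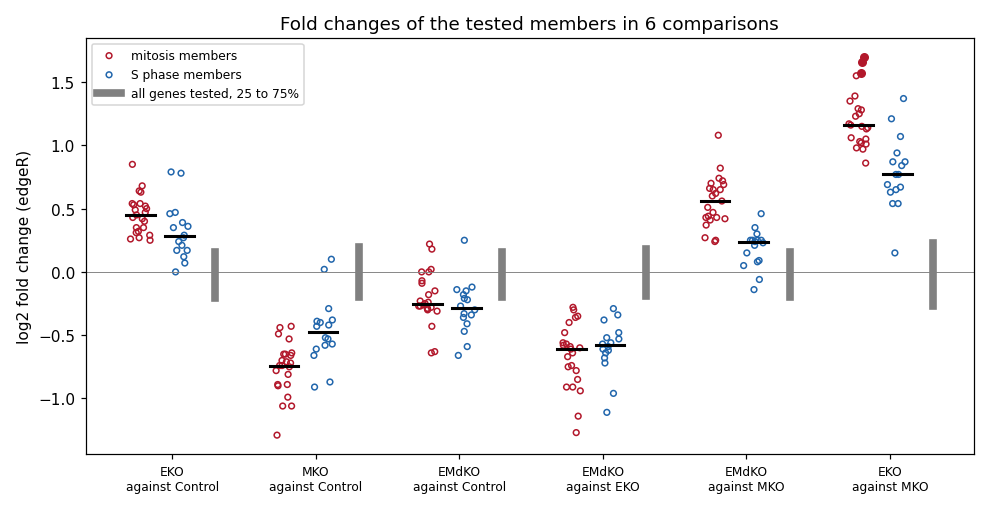
Log2 fold change of each of the 39 tested members in the 6 comparisons between groups (edgeR), with mitosis genes in red and S phase genes in blue. Filled points are the called members, black bars are medians, and the grey bar spans the middle 50% of all 13633 genes. Both medians lie highest in EKO against MKO (1.16 and 0.77), while the mitosis median lies lowest in MKO against Control (-0.74) and the S phase median in EMdKO against EKO (-0.58).

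The median over the mitosis genes was further from 0 than that over the S phase genes in 5 of the 6 comparisons, the exception being EMdKO against Control. In EMdKO against EKO the 2 medians were nearly equal (-0.61 and -0.58). There both were -0.61 without EKO mouse 1, and they were -0.38 and -0.41 with the hair covariate described below. Within a mouse, the 2 phases are compared by the mean log2 CPM of the tested mitosis genes minus that of the S phase genes. Only the change of this difference between mice carries meaning, since levels of different genes depend on their targets. The difference was 0.45, -0.11, -0.01 and 0.09 in Control mice 1 to 4, 0.35, 0.41, 0.24 and 0.21 in EKO, -0.14, -0.30, -0.15 and 0.07 in MKO, and 0.25, 0.11, 0.35 and 0.23 in EMdKO. Every MKO mouse lay below every EKO and every EMdKO mouse, and EKO and EMdKO overlapped. Control mouse 1, with the highest mitosis mean of all 16 (4.78), also had the highest difference. The same difference over other genes of both phases, listed below, was 0.06 to 0.18 in EKO and -0.45 to -0.09 in MKO, and EMdKO at -0.08 to 0.21 overlapped none of the MKO values. In Control it was 0.16, -0.21, -0.18 and 0.08. The members were chosen with results of these data known, so no p is given for this difference.

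The general marker of cycling cells, Mki67, had 73.7, 11.1, 28.4 and 21.2 CPM in Control, 48.9, 53.8, 53.8 and 38.5 CPM in EKO, 12.1, 24.5, 22 and 36.8 CPM in MKO, and 31.7, 25.2, 37.8 and 33.6 CPM in EMdKO. The controls spanned the range of all the other mice, and EKO lay wholly above MKO (1.03 ± 0.43, edgeR adjusted p = 0.237). Cdk1, the mitotic kinase, had 27.2, 3.31, 11.2 and 10.7 CPM in Control, 21.6, 20.2, 18.7 and 16.2 CPM in EKO, 4.39, 7.08, 8.34 and 11.3 CPM in MKO, and 7.38, 11.4, 10.6 and 13.1 CPM in EMdKO. Its EKO values sat above all MKO and EMdKO values and inside the range of the controls (EKO against MKO 1.29 ± 0.43, edgeR adjusted p = 0.146). Top2a, the topoisomerase that untangles chromosomes, and Birc5 followed the same order, at 39.1 ± 5.65 and 33.1 ± 7.46 CPM in EKO and 17.6 ± 7.63 and 13.6 ± 4.44 CPM in MKO, with Control at 27.8 ± 12.8 and 21.3 ± 13.1 and EMdKO at 25.1 ± 5.23 and 17.7 ± 3.39 CPM. Foxm1, the factor that switches on many mitosis genes, averaged 5.19 ± 0.928 CPM in EKO, 3.83 ± 1.77 in Control, 3.09 ± 0.594 in EMdKO and 2.62 ± 1.4 in MKO. It overlapped between EKO and MKO (0.98 ± 0.37, edgeR adjusted p = 0.2) and was higher in every EKO than in every EMdKO mouse.

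Among the genes that act before or at the start of S phase, Ccne1 and Ccne2, the E cyclins of CDK2, gave 0.54 ± 0.49 and 0.15 ± 0.29 between EKO and MKO. Ccne2 had the narrowest range of the 39 members, 4.0 to 9.1 CPM over the 16 mice, and its group means of 6.09 ± 2.06, 6.87 ± 2.07, 6.19 ± 1.53 and 5.61 ± 1.25 CPM (Control, EKO, MKO and EMdKO) differed by less than their spread. Cdc6, which loads the helicase with Cdt1, was near the filter at 0.727 to 3.4 CPM. E2f1 itself averaged 13.4 ± 0.784 CPM in EKO, 12.4 ± 2.6 in Control, 10.6 ± 1.07 in EMdKO and 9.19 ± 3.09 in MKO, with MKO mouse 4 (13.6 CPM) at the level of the EKO mice. Cdt1 averaged 7.17 ± 1.44 CPM in EKO, 6.84 ± 1.4 in Control, 5.13 ± 0.29 in EMdKO and 3.7 ± 1.29 in MKO. Every mouse with LysM-Cre lay below every mouse without it, and EKO against Control gave 0.07 ± 0.24 (edgeR adjusted p = 0.961).

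Uhrf1, which brings the maintenance DNA methyltransferase to newly copied DNA, had the widest range of all members, from 4.55 CPM in MKO mouse 1 to 75.8 CPM in Control mouse 1. It had 75.8, 27.9, 37.5 and 22.6 CPM in Control, 51.8, 44.8, 67.4 and 36.8 CPM in EKO, 4.55, 22.2, 17.3 and 42.5 CPM in MKO, and 24.6, 25.6, 23.1 and 30.2 CPM in EMdKO. The EMdKO mice lay close together and wholly below EKO, while MKO mouse 4 overlapped EKO. Mcm5 had 15.4, 3.31, 7.75 and 8.12 CPM in Control, 13.6, 16.6, 18.3 and 11.2 CPM in EKO, 2.35, 6.57, 4.65 and 9.41 CPM in MKO, and 5.72, 4.36, 9.14 and 8.3 CPM in EMdKO. Its EKO mice were clear of both groups with LysM-Cre (EKO against MKO 1.37 ± 0.42, edgeR adjusted p = 0.12). Rrm2, the regulated subunit of ribonucleotide reductase, stood at 32.6 ± 12.6, 37.7 ± 7.82, 20.6 ± 7.03 and 25.4 ± 6.49 CPM in Control, EKO, MKO and EMdKO, and its groups overlapped.

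Many members shared the mice at the ends of their range and the group with the largest SD. The matching counts over all genes were not made, so this need not be particular to the members. Control had the largest SD of the 4 groups for 33 of 39 members, and Control mouse 1 was the highest of all 16 mice for 18 members, followed by EKO mouse 3 for 13. MKO mouse 1 was the lowest for 26 members. Its library was the shallowest of the 16 (6962474 counts) and had the fewest targets with a count (15975). Its 10 highest targets took the largest share of a library (13.92%). The part of this in its low values was not tested. The median range over the 16 mice was 2.42 on the log2 scale for the mitosis genes (1.68 to 2.96) and 1.97 for the S phase genes (1.14 to 3.99).

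**Figure D3:**
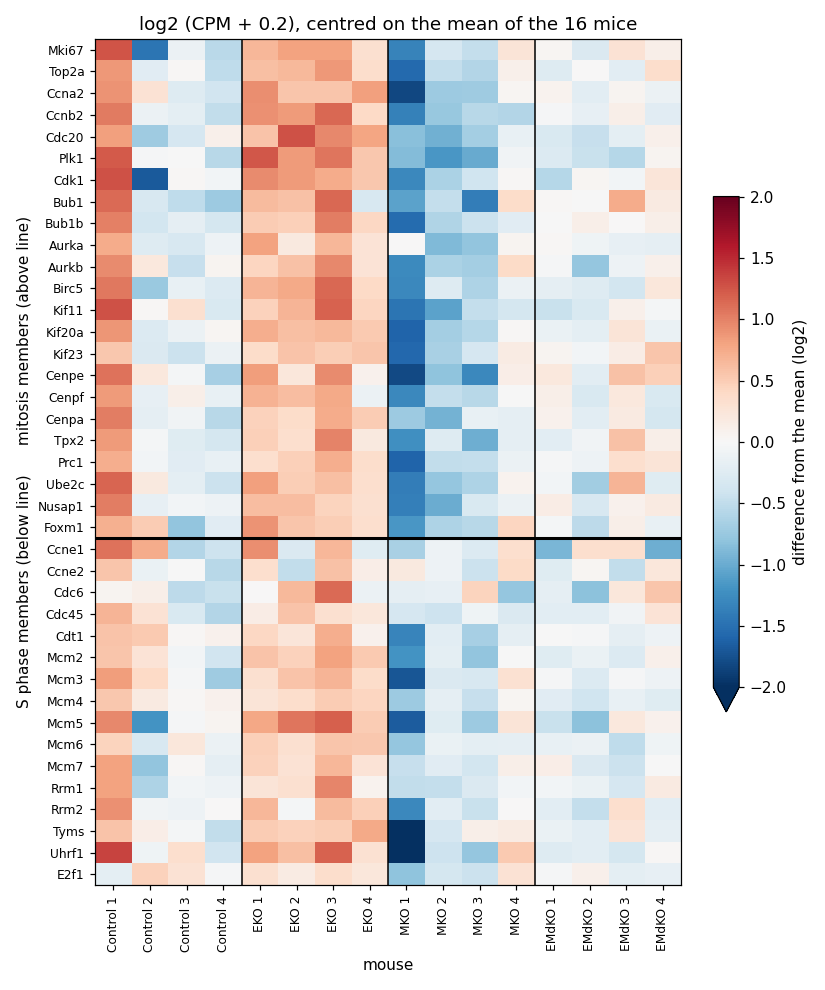
Level of each tested member in each mouse as log2 (CPM + 0.2) minus the mean of that gene over the 16 mice, with mitosis genes above the heavy line and S phase genes below it. Red is above and blue below the gene's mean, and the darkest blue also stands for Uhrf1 and Tyms in MKO mouse 1, which lie below the end of the colour scale. The columns of Control mouse 1 and the EKO mice are mostly red and that of MKO mouse 1 is mostly blue.

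Hair follicle markers varied between mice in step with some of these values. Over 22 markers of the hair shaft and inner root sheath, the summed level was 400 to 45100 CPM in Control, 274 to 8510 in EKO, 189 to 885 in MKO and 143 to 9210 in EMdKO. Between EKO and MKO their median was 4.2 and none was called. The inner root sheath keratin Krt71 had 7450, 1570, 485 and 0 CPM in Control mice 1 to 4, 2020, 212, 528 and 7.09 in EKO, 0, 0, 0.119 and 143 in MKO, and 8.45, 0, 1510 and 0.105 in EMdKO. Krt71 was at 0 in Control mouse 4, MKO mice 1 and 2 and EMdKO mouse 2, mice in which 12 or 13 of the 22 markers were at 0. Control mouse 1, highest for many cell cycle genes, had the highest mean hair marker level of all 16 (9.6 log2 CPM), and MKO mouse 1, lowest for many, had the lowest (-0.73). Control mouse 2 and EMdKO mouse 3 did not follow, with mean hair marker levels of 7 and 6.9 log2 CPM and mitosis means of 3.56 and 3.93, below all 4 EKO mice (4.17 to 4.64). The low end of the hair mean rests on many markers at 0, so the order of mice there carries little weight. Control mouse 4, MKO mice 2 and 3 and EMdKO mice 2 and 4 lay at -0.48 to -0.35. Their mitosis means were 3.13 to 3.87, against 2.54 in MKO mouse 1. By summed level EMdKO mouse 2 was the lowest (143 CPM, against 189 CPM in MKO mouse 1).

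With the mean hair marker level of each mouse as a covariate, the medians of EKO against MKO were 0.82 and 0.55, fold changes were positive for 23 of 23 mitosis and 14 of 16 S phase genes, and 1 member, Ccnb2, was called. Those of MKO against Control were -0.28 and -0.20, those of EMdKO against EKO -0.38 and -0.41, and those of EKO against Control 0.58 and 0.39. EMdKO against Control gave 0.16 and -0.01. Hair level and group went together in part. The mean hair marker level was -0.73, -0.35, -0.35 and 3.57 log2 CPM in MKO mice 1 to 4 and 1.67 to 6.99 in EKO. The covariate therefore cannot separate hair level from group here, and the part of hair follicles in these differences was not tested.

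**Figure D4:**
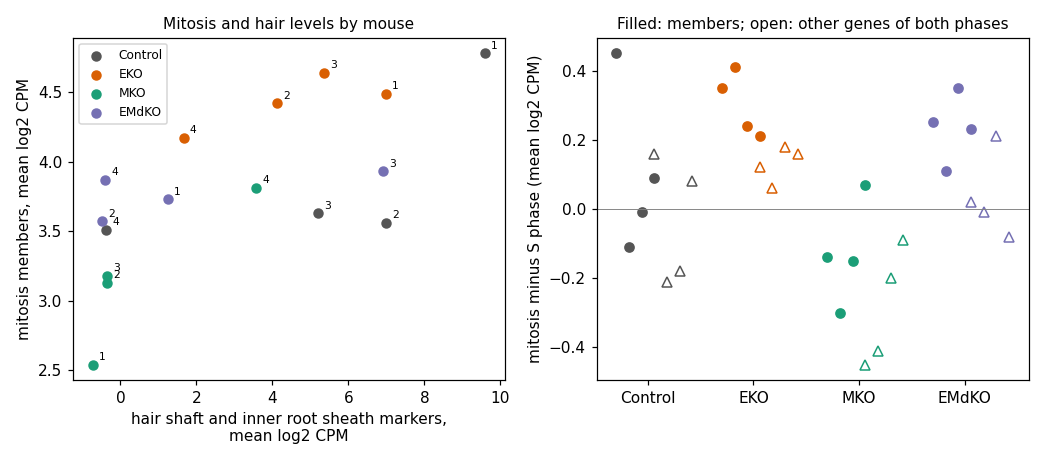
Left, mean log2 CPM of the tested mitosis genes against mean log2 CPM of 22 hair shaft and inner root sheath markers, 1 point per mouse with its number. Right, mean log2 CPM of mitosis genes minus that of S phase genes in each mouse, with filled points for the members and open triangles for other genes of both phases. On the left the 4 EKO mice lie above mice of other groups with similar hair marker levels, and Control mouse 1 is highest on both axes. On the right the MKO points lie below the EKO and EMdKO points of the same kind.

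Markers of basal keratinocytes, the dividing cells of the epidermis, overlapped between all groups in their sum. The summed level of 12 basal markers was 7400 to 13900 CPM in Control, 7430 to 14700 in EKO, 7550 to 11900 in MKO and 10400 to 13800 in EMdKO, and none was at 0 in any mouse. Between EKO and MKO the 12 markers had a median of -0.09, with 4 higher and 8 lower in EKO. Between EKO and Control the median was -0.03, with 5 higher and 7 lower. Krt14 had the highest fold change of the 12 in both comparisons. It averaged 2380 ± 1410 CPM in EKO, 1600 ± 396 CPM in EMdKO, 1130 ± 104 CPM in Control and 955 ± 338 CPM in MKO. It was not called between EKO and Control (1.07 ± 0.39, edgeR adjusted p = 0.608) or between EKO and MKO (1.32 ± 0.39, edgeR adjusted p = 0.116). With the mean of the 12 basal markers as a covariate, the medians of EKO against MKO were 1.21 and 0.77, and 5 members were called (Ccna2, Ccnb2, Cdc20, Kif11 and Plk1). MKO mouse 1 also had the most skeletal muscle RNA, 95500 CPM over 9 markers against 19600 to 51800 CPM in the other mice, and the part of this in its low values was not tested. EKO mouse 1 had little of the stress keratin Krt16 (21.6 CPM, against 153 to 1160 CPM in EKO mice 2 to 4) and of the cytokine Il1f6 (0.516 CPM against 79.3 to 92.4). Its mitosis mean was 4.49, against 4.17 to 4.64 in EKO mice 2 to 4. Its mean hair marker level was 6.99 log2 CPM, against 1.67 to 5.35 in those mice. The part of stress genes or hair follicles in its mitosis mean was not tested. The 8 matched T and NK cell markers summed to 27.6 to 72.5 CPM in Control, 31.2 to 63.2 in EKO, 42.2 to 86.6 in MKO and 55 to 70.3 in EMdKO.

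Other marker lists moved with the comparison of EKO and MKO, in which 0.858% of all genes were called. Of 7 stress keratinocyte markers 5 were called higher in EKO (Krt16, S100a8, S100a9, Il1f6 and Stfa1), with a list median of 5.83 and sums of 879 to 3870 CPM in EKO and 339 to 1080 CPM in MKO. Of 10 suprabasal markers Flg and Hrnr were called higher (list median 1.61), and of 12 sebaceous markers Elovl3 was (list median 1.13). Of 4 tested B and plasma cell markers 3 were called lower in EKO (Cd79b, Jchain and Pou2af1), with a list median of -2.74 and sums of 3.41 to 8.11 CPM in EKO and 9.56 to 50.4 CPM in MKO. Lists without a called marker moved too. In EKO, 6 of 7 melanocyte markers were higher than in MKO (list median 2.76). All 10 adipocyte (median -0.33) and all 8 endothelial markers (median -0.47) were lower, as were 7 of 9 skeletal muscle markers (median -0.55). The part of all these cells in the cell cycle differences was not tested.

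Other genes of the same pathways, taken from lists written with results of these data known, gave a wider view. Of 43 tested further mitosis genes, 4 were called higher in EKO than in MKO, against 0.858% of all genes, and the list's median was 0.99. They were Kif22 (1.71 ± 0.24, edgeR adjusted p = 0.00834) and Kif4 (1.30 ± 0.26, adjusted p = 0.0361), both motors that act on chromosome arms, Ckap2, a spindle protein (1.14 ± 0.19, adjusted p = 0.0138), and Spc24, a subunit of the NDC80 kinetochore complex (1.70 ± 0.33, adjusted p = 0.0324). Over 40 further S phase genes the median was 0.55, and 2 were called higher, among them Gmnn, the inhibitor of CDT1 (1.23 ± 0.27, edgeR adjusted p = 0.0468). None of the further genes of either phase was called in the other 5 comparisons.

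None of the listed genes upstream of these phases was called in any comparison. The 9 G1 entry genes had the median furthest from 0 in MKO against Control, at -0.30, and Ccnd1, cyclin D1 (-0.70 ± 0.23), and Myc (-0.41 ± 0.19) had the smallest p, with edgeR adjusted p of 0.334 and 0.506. Single genes lay further from 0 without being called: EMdKO against Control gave -2.90 ± 0.98 for Mycn, a MYC family factor, and -0.73 ± 0.23 for Ccnd1 (edgeR adjusted p of 0.446 and 0.433). Of 12 genes of E2F factors and the DREAM and MuvB complexes, none was called and the largest median was -0.18, also in MKO against Control, with E2f2 at -0.96 ± 0.33 and Mybl2, which encodes B-MYB, at -0.97 ± 0.37 (edgeR adjusted p of 0.342 and 0.391). Mybl2 was at 1.53 ± 0.37 in EKO against MKO (edgeR adjusted p = 0.0607). Of 16 tested cell cycle inhibitors none was called, and their largest median was 0.16, in EKO against MKO, where Cdkn2d, an inhibitor of CDK4 and CDK6 (0.64 ± 0.21), and the stress gene Gadd45a (0.57 ± 0.21) had edgeR adjusted p of 0.141 and 0.198. The median of all genes lay between -0.03 and 0.01 in these comparisons.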

How the data were processed

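Whole skin of 16 mice, 4 per group, was compared, and group and mouse number came from the titles and genotypes in the labels. For EMdKO and MKO the deposited files' names carry other numbers, which were not used. Per the labels' protocols, an Ion AmpliSeq transcriptome kit for mouse was used, which amplifies a short stretch of each transcript from total RNA. The authors deposited a raw read count per target, and HTSeq 0.6.0 and DESeq2 1.18.1 are named in the submitters' processing notes. The aligner and genome build are not given in the sources used here. The 5 summary lines of each file (3.111 to 5.252% of its reads) were left out. Of 23930 targets, 22562 were given a symbol, 22448 of them by RefSeq (GRCm38.p6) and 114 by GENCODE. No pair of libraries looked like copies (smallest chi-square per degree of freedom 14.43).

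Counts were fitted in edgeR 4.0.16 (R 4.3.3) by quasi-likelihood with TMM scaling, the default filter, 1 mean per group over all 16 libraries, 12 residual degrees of freedom and 13633 genes. The biological coefficient of variation was 0.31. The SE is the absolute fold change divided by the square root of F. Log2 CPM used a prior count of 2. A Benjamini-Hochberg adjusted p under 0.05 was called, in 7 contrasts. The pipeline was tested on simulated data.

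The members, lists, motifs and alternatives were chosen with earlier results of these data known. Named genes were Zc3h12a, Krt14 and Lyz2, a set of general phase genes, every called member, the 3 mitosis and 3 S phase genes with the smallest p in each contrast, those of widest and narrowest range, and in each pathway list the called genes or else the 2 with the smallest p. Ccna2, Bub1b, Mycn, the single marker genes and Ccnd1 and Mybl2 outside MKO against Control were named after their values were seen. Alternatives were DESeq2 1.42.0, limma-voom with a quality weight for each library (limma 3.58.1), other scalings and filters and a replicate block. Hair and basal keratinocyte covariates, the compared groups alone and libraries left out were the others. A result on a further S phase gene is not reported here. Figures used matplotlib 3.10.9.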

Additional observations from a re-analysis of the deposited data

Results flagged for a closer look

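In 4 of the 84 groups of 4 mice examined, 1 mouse lay far from the other 3 by Dixon's ratio, where chance gives about 1 in 20. Control mouse 1 had 19.8 CPM of Ccnb2 against 6.75 to 8.77 in the other controls (ratio 0.845) and 51.5 CPM of Rrm2 against 25.5 to 27.6 (ratio 0.919). Its mean over the mitosis genes was 4.78 log2 CPM against 3.51 to 3.63 (ratio 0.906). MKO mouse 1 had 25.1 CPM of Mcm6 against 37.3 to 39.2 in the other MKO mice (ratio 0.865).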

How the results depend on the processing

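The count of members called between EKO and MKO was the result that moved most. It was 3 in edgeR with TMM, RLE or library size scaling and with the compared groups alone, 23 with DESeq2, 34 with limma-voom, 6 with upper quartile scaling, 7 without a filter, 6 with a stricter filter (1 CPM in 4 libraries), 1 with the hair covariate, 5 with the basal keratinocyte covariate and 19 without Control mouse 1 and EKO mouse 1. Leaving out each library in turn gave 0 to 17. Leaving out Control mouse 1 and EKO mouse 1 gave 2 called members in EKO against Control, where leaving out single libraries gave 0, as in the other 4 comparisons between groups and the interaction. The mitosis median of MKO against Control was -0.28 with the hair covariate and -0.96 to -0.38 with single libraries left out. That of EMdKO against Control was 0.19 without Control mouse 1, with or without EKO mouse 1, and -0.34 to 0.19 with single libraries left out. The other mitosis medians under the same step were 0.32 to 0.77 (EKO against Control), 0.37 to 0.80 (EMdKO against MKO), -0.70 to -0.55 (EMdKO against EKO) and 1.00 to 1.44 (EKO against MKO). The cause of these shifts was not tested. Mouse numbers showed no regular pairing: same-numbered mice correlated from -0.54 to 0.61, 7 of 24 pairs lay over 0.1, and 4 of 16 libraries correlated best with their own number. Mice of number 4 correlated at 0.40 to 0.61 among Control, EKO and EMdKO and at -0.54 to -0.36 with MKO. Only the numbers in the titles were examined, so a shared batch or litter was not tested. With a replicate block 2 members, Ccnb2 and Cdc20, were called in EKO against MKO. Depth limits Gins2, Cdc6, Bub1 and Ccne1 most, with counts as low as 1, 6, 6 and 8.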
